A study of Mus musculus with 18 samples.

Results

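T cells recognise antigen through a receptor whose variable chains are joined to constant regions, and whose signal passes through the CD3 chains. The genes described here are the constant regions of the mouse T cell receptor (Trac for the alpha chain, Trbc1 and Trbc2 for beta, Tcrg-C1, Tcrg-C2 and Tcrg-C4 for gamma, and Trdc for delta) and the CD3 genes Cd3d, Cd3e and Cd3g. They are 10 of the 54752 genes in the count table and were taken by symbol. They were selected on measured values of these same libraries, because Trdc was high in the cirrhotic livers alone, so their differences between groups are given as a description and without a test. The libraries hold liver RNA of 18 male C57BL/6 mice, 6 per group, bought at 6 weeks of age and treated for 12 weeks. Control mice received 2 intraperitoneal injections of corn oil a week, each of 10 µl for every g of weight, and oral double distilled water. Cirrhosis mice had 10% carbon tetrachloride (CCl4), a solvent toxic to the liver, in corn oil at the same volume and schedule, and the same water. Cirrhosis-PTH mice (the PTH group) had the same CCl4 injections and daily oral Pien Tze Huang (PTH), a traditional Chinese medicine, at 0.25 mg per g. No group had corn oil with PTH, so an effect of PTH without CCl4 was not measured. The comparisons share groups: Cirrhosis enters 2 of them, and so do Control and Cirrhosis-PTH.

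An alpha-beta T cell joins V and J segments in the alpha locus, and V, D and J segments in the beta locus, to their constant regions. A gamma-delta T cell does the same in its own gamma and delta loci, and the delta segments lie inside the alpha locus, so that a V-to-J joint for alpha deletes Trdc from that chromosome. Either receptor reaches the cell surface only with CD3 and with the zeta chain, which Cd247 encodes. The liver normally holds alpha-beta T cells of several kinds and a smaller population of gamma-delta T cells.

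The sequences that matter most for reading the counts are those of Trdc and of its main J segment. Both are from the GENCODE annotation of GRCm38, written 5′ to 3′. Trdj1, the J segment with most of the delta J counts, lies at chr14:54123138-54123188 on the plus strand and ends 19662 bases before Trdc. It is printed whole.
Trdj1: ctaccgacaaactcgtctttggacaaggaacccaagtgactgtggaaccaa
The first coding exon of Trdc, at chr14:54142851-54143129 on the plus strand, is the part that is spliced to a J segment.
Trdc: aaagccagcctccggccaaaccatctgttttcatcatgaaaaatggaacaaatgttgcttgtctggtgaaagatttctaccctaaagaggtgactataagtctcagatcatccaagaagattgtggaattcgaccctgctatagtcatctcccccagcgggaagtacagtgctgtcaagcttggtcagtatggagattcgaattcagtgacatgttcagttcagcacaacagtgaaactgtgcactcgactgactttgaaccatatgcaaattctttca
The annotated Trdc gene runs over chr14:54142851-54148868 and has 4 exons with 3865 bases. Of these, 458 are coding and 3407 (88.2%) are untranslated, and the last exon alone holds 3403. No other constant gene has so long an untranslated part: it takes 56.1% of Trac, 29.7% of Trbc1 and 42.2 to 45.3% of the gamma genes. A count for Trdc therefore does not show whether a read lay in the coding exons or in the last exon.

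Trbc1 and Trbc2 differ at 1 of the 375 bases of their first coding exon (99.7% identity). Tcrg-C1 and Tcrg-C2 differ at 9 of 330 bases of their first coding exon (97.3% identity). Tcrg-C4 stands further off, with 59 differences from Tcrg-C1 over the same length. Of all 50-base words in the transcripts, 40.5% of those in Trbc1 also occur in Trbc2, and 34.2% of those in Tcrg-C1 occur in Tcrg-C2 or Tcrg-C3. Reads from such stretches can be assigned to either copy, so the levels of Trbc1 against Trbc2 and of Tcrg-C1 against Tcrg-C2 are uncertain. Trac and Tcrg-C4 share no 50-base word with another gene. Of the words in Trdc, 5.92% occur in transcripts of other genes (945 genes), and 0 of these words lie within its coding part.

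Totals ran from 62.5 to 112.3 M counts per library, and loci that collect ribosomal RNA reads held 31.4 to 60.8% of them. The factors that scale library size ran from 0.578 to 0.930 in Control, 1.21 to 1.36 in Cirrhosis and 0.854 to 1.23 in the PTH group, so levels are given as CPM, the counts in each 1 M of the scaled library size. Hepatocyte markers such as Alb, the albumin gene, were abundant in every library, at 35581 to 69808 summed CPM over 10 markers. Low counts need care: among genes with 1000 to 3000 exonic bases, 137521 values are 0 but only 1882 are 1, while 4838 are 4. No value of the 10 genes is 1 or 2, 34 of their 180 values are 0, and the lowest above 0 is 3, so a listed 0 need not mean that no read was present. Since these are whole livers, fewer cells of a type and less RNA per cell cannot be told apart.

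The alpha-beta constant genes were at low levels that overlapped between all groups. Trac, the constant region of the alpha chain (chr14:54220521-54224206), had 0.114 CPM in the lowest Control library, 0.450 at the median and 0.507 in the highest. In Cirrhosis it had 0.282, 0.532 and 0.608 CPM. In Cirrhosis-PTH it had 0, 0.332 and 0.629 CPM. The Cirrhosis-PTH range thus spans that of both other groups, from replicate 4, where Trac was listed at 0, to replicate 6, the highest of all 18 libraries. The log2 fold change was 0.36 ± 0.55 (SE) for Cirrhosis against Control and -0.78 ± 0.55 for Cirrhosis-PTH against Cirrhosis. These values are a description and not a test of change.

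Trbc1 had 0.214, 0.324 and 0.456 CPM (lowest, median, highest) in Control, 0.403, 0.555 and 0.998 in Cirrhosis, and 0.0993, 0.411 and 0.915 in Cirrhosis-PTH. Trbc2 had 0.186, 0.333 and 0.527 CPM in Control, 0.415, 0.556 and 0.745 in Cirrhosis, and 0.383, 0.592 and 0.924 in Cirrhosis-PTH. For both beta genes the lower Cirrhosis libraries overlapped the upper Control libraries. The log2 fold change for Cirrhosis against Control was 0.89 ± 0.39 for Trbc1 and 0.77 ± 0.30 for Trbc2. Summed over Trac, Trbc1 and Trbc2 the mean level was 1.06 ± 0.30 CPM in Control, 1.68 ± 0.23 in Cirrhosis and 1.36 ± 0.55 in the PTH group (SD, n = 6 each).

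In that sum the Cirrhosis libraries (1.46 to 1.99 CPM) lay above every Control library (0.514 to 1.33 CPM), and the Cirrhosis-PTH libraries (0.780 to 2.23 CPM) overlapped both. The V and J segments of the same chains are given beside this, but since a V segment and its constant region sit on 1 transcript they are no separate evidence. V alpha segments had 33 counts in Control, 247 in Cirrhosis and 83 in the PTH group, and J alpha segments had 76, 300 and 92. Segments named for both alpha and delta are counted as V alpha, among them Trav13-4-dv7 (0, 15 and 17 counts) and Trav14d-3-dv8 (0, 21 and 4). V beta segments had 118, 208 and 87. Scaled to library size, V alpha was 0.0729 ± 0.071 CPM in Control, 0.364 ± 0.14 in Cirrhosis and 0.153 ± 0.076 in the PTH group. V beta was 0.315 ± 0.19, 0.304 ± 0.12 and 0.160 ± 0.18 CPM in the same order (SD, n = 6 each).

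No V segment was carried by all libraries of a group, apart from Trdv4 in Cirrhosis, among the 3 most counted of each chain. Trbv13-2 had 47 counts in Control and 40 in Cirrhosis, spread over 4 and 5 libraries, and was listed at 0 in all Cirrhosis-PTH libraries. Trbv1 had 26 counts in 2 Control libraries and 18 in 2 Cirrhosis-PTH libraries, and was listed at 0 in Cirrhosis. Trav16 had 16 counts, all in Cirrhosis replicates 2 and 3. At this depth a listed 0 for a V segment says little about its use.

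**Figure D1:**
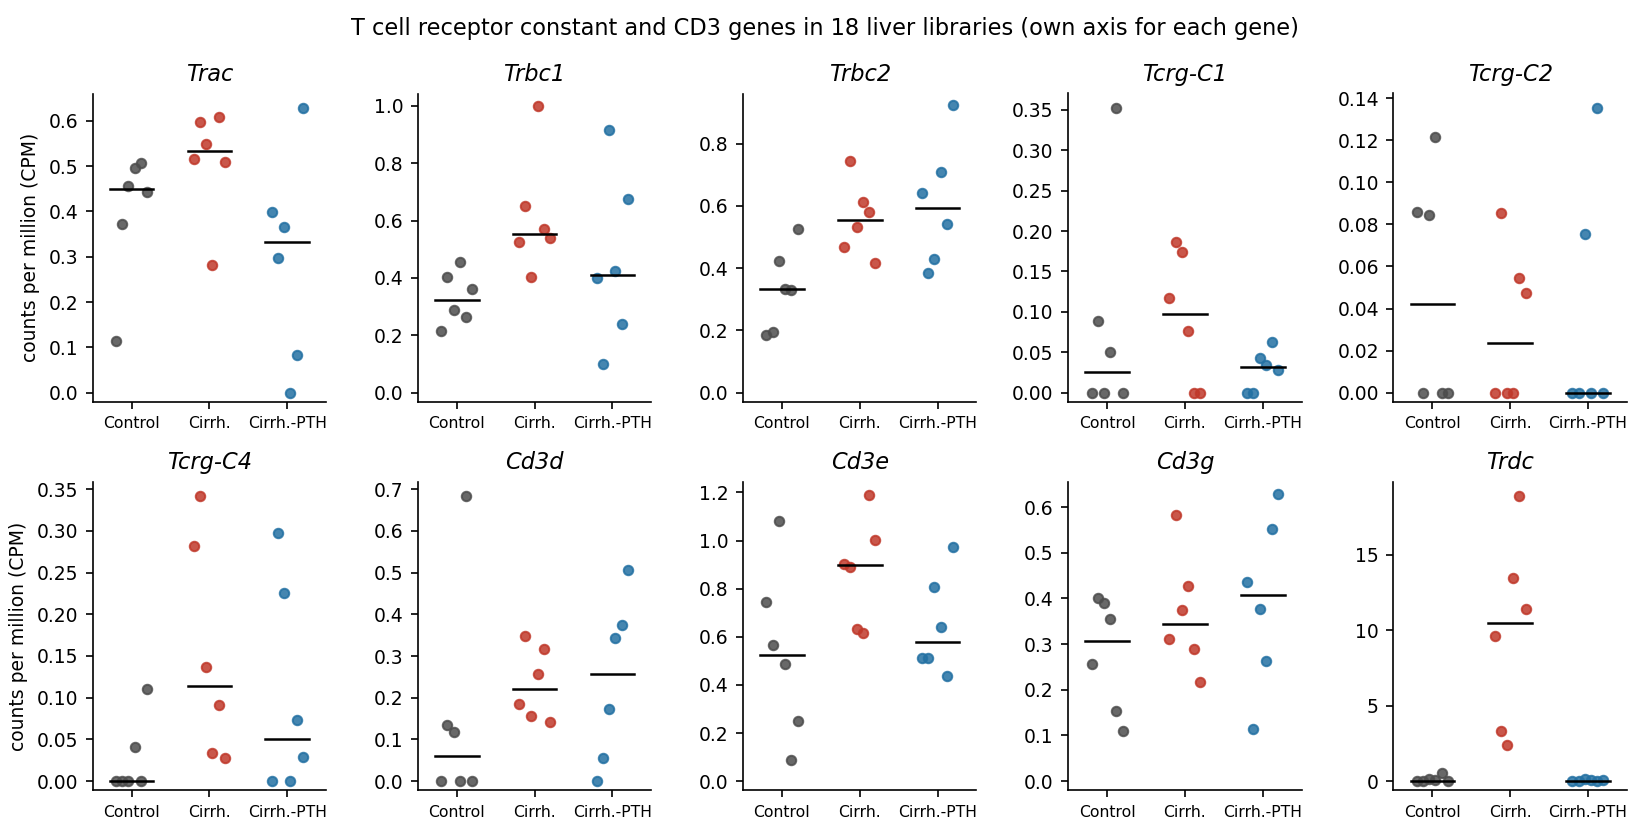
Level of each gene in CPM (vertical axes, a linear scale of its own for each gene) in the 6 libraries of Control, Cirrhosis (Cirrh.) and Cirrhosis-PTH (Cirrh.-PTH). Points are libraries and lines are medians. Trdc lies between 2.39 and 18.9 CPM in Cirrhosis and at 0.551 CPM or less elsewhere.

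The CD3 genes carry the receptor's signal: Cd3e is shared by both CD3 dimers, and Cd3d and Cd3g each pair with it. They lie side by side on chr9 (Cd3g at chr9:44969572-44980431, Cd3d at chr9:44981786-44987339 and Cd3e at chr9:44998740-45009627). Cd3e had 0.0881, 0.526 and 1.08 CPM (lowest, median, highest) in Control, 0.614, 0.898 and 1.19 in Cirrhosis, and 0.438, 0.577 and 0.972 in Cirrhosis-PTH. Cd3g had 0.111, 0.306 and 0.402 CPM in Control, 0.217, 0.343 and 0.582 in Cirrhosis, and 0.113, 0.407 and 0.629 in Cirrhosis-PTH. For both genes the groups overlapped in every comparison.

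Cd3d had 0, 0.0592 and 0.683 CPM in Control, 0.142, 0.220 and 0.349 in Cirrhosis, and 0, 0.258 and 0.505 in Cirrhosis-PTH. Its highest value of all libraries, and 31 of its 47 Control counts, came from Control replicate 7. That library had the lowest Cd3e of all, at 4 counts, so the CD3 genes were not high in it together. For Cirrhosis against Control the log2 fold change was 0.68 ± 0.37 for Cd3e, 0.37 ± 0.40 for Cd3g and 0.64 ± 0.94 for Cd3d. Without Control replicate 7 the value for Cd3d was 2.18. With Control replicates 7 and 8 both left out the value for Cd3e was 0.34.

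Summed, the CD3 genes were at 0.970 ± 0.40 CPM in Control, 1.47 ± 0.27 in Cirrhosis and 1.28 ± 0.48 in the PTH group (SD, n = 6 each). The leukocyte gene Ptprc, which encodes CD45 and is not 1 of the 10, had 18.3 CPM in Control, 58.3 in Cirrhosis and 26.6 in the PTH group. Ptprc rose in Cirrhosis against Control (log2 fold change 1.67 ± 0.14, edgeR adjusted p = 8e-09) and fell in Cirrhosis-PTH against Cirrhosis (-1.13 ± 0.14, edgeR adjusted p = 1.8e-06). Per 100 Ptprc counts there were 5.66 ± 2.71 CD3 counts in Control, 2.59 ± 0.57 in Cirrhosis and 4.81 ± 1.70 in the PTH group. Cirrhosis libraries had 2.12 to 2.52 apart from replicate 5, at 3.72. Both other groups had 4.25 or more in all but 1 library each, Control replicate 8 at 1.496 and Cirrhosis-PTH replicate 2 at 2.64, so the groups overlapped.

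**Figure D2:**
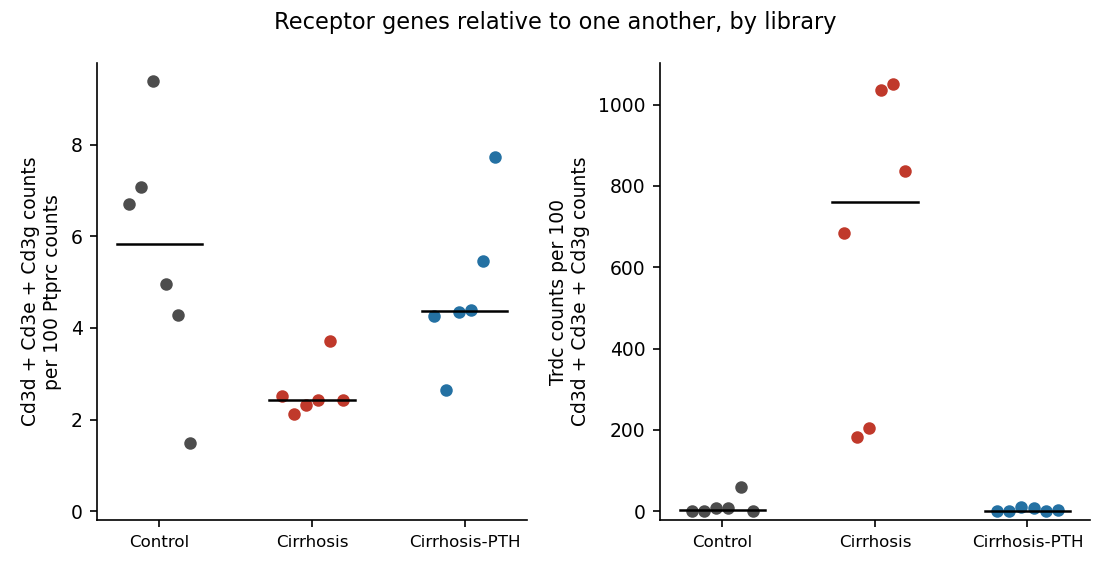
Left, summed counts of Cd3d, Cd3e and Cd3g per 100 Ptprc counts. Right, Trdc counts per 100 summed CD3 counts. Points are libraries and lines are medians, on linear axes. The Cirrhosis medians are 2.43 on the left, below the 5.84 of Control and 4.37 of Cirrhosis-PTH, and 761 on the right, where the other medians are 3.61 and 1.58.

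The gamma constant genes had few counts in every group. Tcrg-C1 had 27 counts over the Control libraries, 64 over Cirrhosis and 16 over Cirrhosis-PTH, Tcrg-C2 had 23, 22 and 20, and neither passed the filter on low counts. Tcrg-C4 had 8, 105 and 52 counts and was above 0 in all 6 Cirrhosis libraries, in 2 of Control and in 4 of Cirrhosis-PTH. Its log2 fold change for Cirrhosis against Control was 2.72 ± 1.13, or 3.68 without Control replicate 8, and the groups overlapped. Summed, the gamma constants had 0.156 ± 0.11 CPM in Control, 0.276 ± 0.21 in Cirrhosis and 0.167 ± 0.15 in the PTH group (SD, n = 6 each). The V gamma segments had 4, 76 and 18 counts in these groups.

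Trdc, the constant region of the delta chain, was far higher in Cirrhosis than in either other group, which is the difference by which the genes were chosen. Control libraries had 0, 0.0304 and 0.551 CPM (lowest, median, highest), with 38 counts in all. Cirrhosis libraries had 2.39, 10.5 and 18.9 CPM, with 6534 counts. Cirrhosis-PTH libraries had 0, 0.0333 and 0.129 CPM, with 27 counts. Each Cirrhosis library was thus above every library of both other groups, and 3 Control and 3 Cirrhosis-PTH libraries were listed at 0. Of the 38 Control counts, 25 were in replicate 7.

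The mean level was 9.83 ± 6.24 CPM in Cirrhosis, 0.122 ± 0.22 in Control and 0.0479 ± 0.056 in Cirrhosis-PTH (SD, n = 6 each), a ratio of 80.8 between the means of Cirrhosis and Control. The fitted log2 fold change was 6.50 ± 0.88 for Cirrhosis against Control and -7.57 ± 0.92 for Cirrhosis-PTH against Cirrhosis. For Cirrhosis-PTH against Control it was -1.07 ± 1.18, and it turned to 0.36 without Control replicate 7. Without that library the first value was 7.93. Within Cirrhosis the level itself varied, with replicates 2 and 3 at 3.31 and 2.39 CPM and the other 4 libraries at 9.60 to 18.9.

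Levels can be set beside each other per kb of annotated exons. On that scale Trdc was at 2.54 CPM per kb in Cirrhosis, the highest of the 10 genes, with an SD of 1.62, followed by Trbc1 at 0.821, Trbc2 at 0.808 and Trac at 0.546. In Control the order was Trbc2 at 0.480, Trbc1 at 0.442 and Trac at 0.426, ahead of Cd3e at 0.131, with Trdc at 0.0315. The 3 alpha-beta genes are not apart there, since each has an SD of 0.12 to 0.19. Cirrhosis-PTH had Trdc last, at 0.0124 CPM per kb, and Trbc2 first, at 0.875. Of Trdc and Trac together, per kb, Trdc made up 51.3 to 92.0% in Cirrhosis libraries and 20.8% or less in Control. In Cirrhosis-PTH it made up 7.87% or less, leaving out replicate 4, where Trac was listed at 0 and the share has no meaning. The exon lengths of the CD3 genes include alternative transcripts, which lowers their values on this scale.

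**Figure D3:**
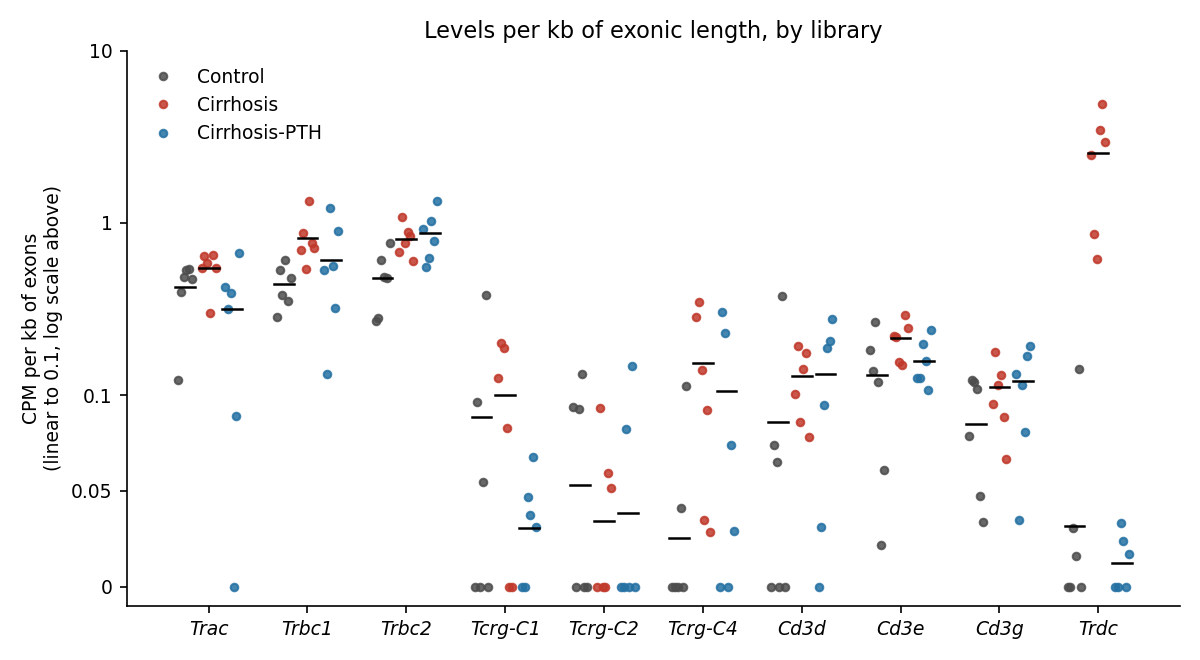
CPM per kb of annotated exons for each gene (vertical axis linear up to 0.1 and logarithmic above), by library and group. Points are libraries and lines are means. In Cirrhosis Trdc has a mean of 2.54, above Trbc1 at 0.821, and in the other groups it is among the lowest, at 0.0315 and 0.0124.

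A total of 8 of the 10 genes passed the filter on low counts, Trdc through its Cirrhosis libraries, which each had at least 261 counts. In the edgeR fit 2 of these 8 were called higher in Cirrhosis against Control (Trdc and Trbc2), where 25.5% of all 21914 genes tested were called higher and 25.0% lower. At an unadjusted p under 0.05 there were 4 (Trbc1, Trbc2, Trdc and Tcrg-C4), and DESeq2 called the same 4. In Cirrhosis-PTH against Cirrhosis 1 was called lower (Trdc), where 20.1% of all genes were called higher and 18.6% lower. In Cirrhosis-PTH against Control 0 were called, with 1 (Trbc2) at an unadjusted p under 0.05 and the same 1 called by DESeq2, where 6.34% of all genes were called higher and 2.48% lower. These counts come from the contrasts on which the genes were chosen, and nothing is read from them. The call of Trbc2 was lost under 9 of 24 alternatives, among them without Control replicates 1, 2, 6 or 7 and without Cirrhosis replicates 2, 4 or 5.

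Trdc counts are set here beside those of the chains it works with. The genes were chosen because Trdc was high in Cirrhosis alone. Its high ratios there follow from that choice and are a description. Per count of all gamma constants together there were 0.655 Trdc counts in Control, 34.2 in Cirrhosis and 0.307 in the PTH group. V delta segments had 10, 113 and 37 counts, so that 1 V delta count stood beside 3.8 Trdc counts in Control, 57.8 in Cirrhosis and 0.730 in the PTH group. The V delta sum leaves out segments named for both alpha and delta, so it may miss part of the delta chains. For the alpha chain, Trac counts per V alpha count were 4.48, 1.39 and 1.93. Trbc1 and Trbc2 counts per V beta count were 2.09, 3.85 and 6.69. Gamma constant counts per V gamma count were 14.5, 2.51 and 4.89, with only 4 V gamma counts in Control. Without Control replicate 7, a check chosen after seeing the data, the Control values were 0.310 Trdc counts per gamma constant count and 2.17 per V delta count. Trdc counts per 100 CD3 counts had a median of 3.61 in Control, 761 in Cirrhosis and 1.58 in the PTH group. In each Cirrhosis library there were at least 182 Trdc counts per 100 counts of Cd3d, Cd3e and Cd3g together. Trdc has more exonic bases than most of these genes, so its counts per count of another gene are compared only between groups.

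Of the delta V segments, Trdv4 was the only 1 with counts in every Cirrhosis library (7 to 18, 63 in all), and it had 10 counts in Control and 35 in Cirrhosis-PTH. Trdv5 had 0, 36 and 2 counts and Trdv1 had 0, 8 and 0. Trdv5 lies on the opposite strand and overlaps the last exon of Trdc. Whether the counting used the strand is not given in the sources used here, so reads of Trdv5 and Trdc cannot be told apart where they overlap.

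Counts were present before Trdc in Cirrhosis too. Trdj1, whose sequence is given above, had 171 counts in Cirrhosis, 0 in Control and 1 in Cirrhosis-PTH, on only 51 bases. By library, Cirrhosis replicates 1 to 6 had 25, 12, 11, 35, 61 and 27 Trdj1 counts, beside 987, 427, 261, 1575, 2079 and 1205 Trdc counts. The 6 libraries stood in the same order by either gene. Trdj2 had 11 counts in Cirrhosis and 0 in both other groups.

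The antisense transcript Gm43434 (chr14:54128298-54146287, minus strand), whose span overlaps Trdc, had 113 counts in Cirrhosis, 0 in Control and 6 in Cirrhosis-PTH. Gm30275, a further antisense transcript whose span covers Trdv4 and Trdj1, had 34 counts in Cirrhosis and 0 in both other groups. With the strand setting not given, reads of either antisense transcript cannot be told from reads of the delta genes where they overlap. Summed over all features that end before Trdc within 110 kb, there were 10 counts in Control, 280 in Cirrhosis and 36 in the PTH group. On the far side of Trac, Dad1, a subunit gene of the oligosaccharyltransferase, had 18.7 ± 2.34 CPM in Control, 18.6 ± 1.32 in Cirrhosis and 17.002 ± 2.27 in the PTH group (SD, n = 6 each). The J alpha segments between Trdv5 and Trac, some of them also listed at 0 in all Control libraries, together had 0.204 ± 0.051 CPM in Control, 0.441 ± 0.083 in Cirrhosis and 0.163 ± 0.10 in the PTH group.

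**Figure D4:**
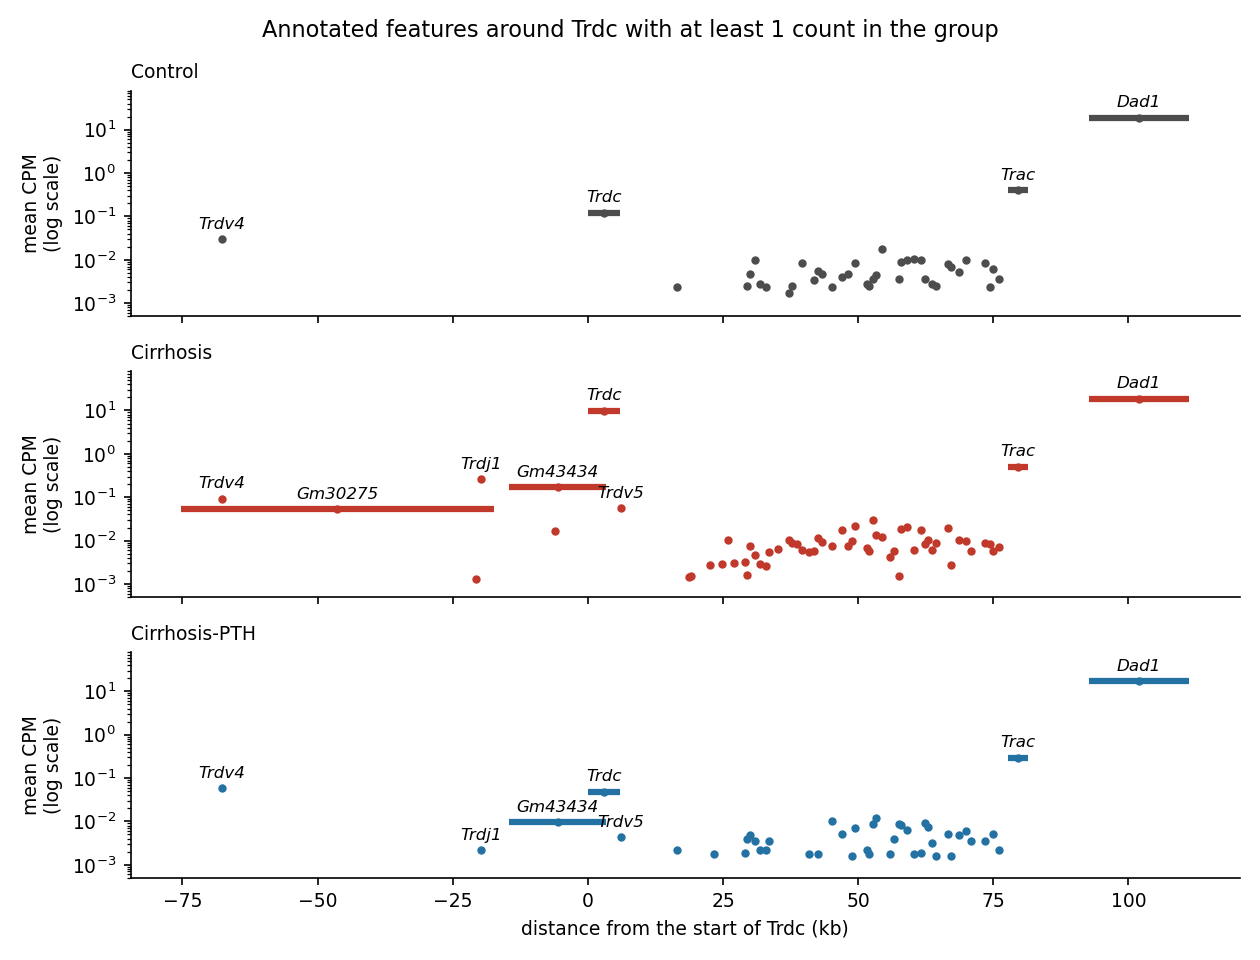
Mean CPM (log scale) of annotated features around Trdc against their distance in kb from its start, for each group. Bars span a feature and points mark its middle, and features without a count in the group are not drawn. Trdj1, Gm43434 and Trdv5 have 171, 113 and 36 counts in Cirrhosis and 0 in Control, while Dad1 has 17.002 to 18.7 CPM in all groups.

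Within groups no relation between members passed a test after adjustment. Of 12 relations between library levels (Cd3e with Trac, Cd3d with Cd3g, Trdc with Trac, and Trdc with Tcrg-C1, each in 3 groups of 6), 0 had an adjusted p under 0.05 in a two-sided exact permutation test, and 1 had an unadjusted p under 0.05. That 1 was Trdc with Tcrg-C1 in Cirrhosis, with Pearson r = -0.77 (exact permutation p = 0.033, adjusted p = 0.40) and Spearman rho = -0.89 (exact permutation p = 0.033, adjusted p = 0.40). Without the 2 libraries farthest from the median of Tcrg-C1, r was -0.94. Cirrhosis replicates 2 and 3, with the least Trdc, had the most Tcrg-C1 counts (24 and 19) and the most V gamma counts (33 and 16). Replicates 5 and 6 had Tcrg-C1 listed at 0. Upper quartile scaling kept all 12 on the same side of the threshold.

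Genes of T cell receptor signalling, by which the 10 genes were not chosen, rose in Cirrhosis in 14 of 23 cases. Of 25 genes listed for this pathway, 23 were tested. In Cirrhosis against Control 2 of them fell, and the median log2 fold change was 0.92, beside 0.015 for all genes tested. Of all genes tested, 25.5% were called higher there and 25.0% lower. The kinase Lck, which phosphorylates CD3, rose from 0.504 CPM (0.220 to 0.859) to 1.498 (1.05 to 2.005), with no overlap (log2 fold change 1.57 ± 0.29, edgeR adjusted p = 0.00014). The adaptor Lcp2 rose from 5.45 to 12.2 CPM (1.17 ± 0.14, edgeR adjusted p = 6.5e-07), and the GTPase Rhoh from 1.496 to 3.85 (1.36 ± 0.18, edgeR adjusted p = 2.2e-06). Lcp2 and Rhoh are also expressed by other leukocytes.

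Among the coreceptors, Cd8a and Cd8b1, which encode the CD8 chains, rose and Cd4 did not pass the test. Cd8a went from 0.346 to 0.757 CPM (1.10 ± 0.37, edgeR adjusted p = 0.018), and its call was lost with Control replicates 7 and 8 both left out (adjusted p = 0.066 by edgeR). Cd8b1 went from 0.0581 to 0.345 CPM (2.53 ± 0.77, edgeR adjusted p = 0.0088). Cd4 had 0.841 CPM in Control and 0.768 in Cirrhosis (-0.14 ± 0.32, edgeR adjusted p = 0.75). There were 0.438 ± 0.21 Cd8a counts per Cd4 count in Control, 1.02 ± 0.35 in Cirrhosis and 2.07 ± 2.15 in the PTH group (SD, n = 6 each). The medians were 0.369, 1.13 and 1.12, and Cirrhosis-PTH replicate 4, at 6.08, raised the mean of its group. These differences were not tested. Cd247, the zeta chain gene, had 0.213 and 0.438 CPM (1.02 ± 0.43) and missed the threshold at an edgeR adjusted p of 0.051. It passed under 7 of 24 alternatives.

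The 2 genes that fell were Zap70, the kinase that binds the phosphorylated CD3 and zeta chains, and Themis, which acts in T cell development. Zap70 fell from 4.53 CPM (2.25 to 7.59) in Control to 1.78 (0.826 to 3.40) in Cirrhosis, with a log2 fold change of -1.35 ± 0.36 and an edgeR adjusted p of 0.0037. Themis was singled out after its values were seen and fell from 1.93 to 0.926 CPM (-1.06 ± 0.31, edgeR adjusted p = 0.0063). Neither call was lost under any of the 24 alternatives. Per kb of exons, Zap70 in Control was at 1.51 CPM, above Lck at 0.172. Which cells the Zap70 counts came from was not tested, so a fall within T cells cannot be read from them.

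In Cirrhosis-PTH against Cirrhosis 1 gene of the list rose and 6 fell, and the median was -0.42, beside -0.0032 for all genes tested. Of all genes tested, 20.1% were called higher there and 18.6% lower. Lcp2 fell from 12.2 to 5.85 CPM (-1.06 ± 0.14, edgeR adjusted p = 3.4e-06) and Rhoh from 3.85 to 2.37 (-0.70 ± 0.18, edgeR adjusted p = 0.0032). Zap70 rose from 1.78 to 3.70 CPM (1.05 ± 0.35, edgeR adjusted p = 0.023), a call that was lost without Cirrhosis replicates 1, 4, 5 or 6 or Cirrhosis-PTH replicate 1. Lck had 1.498 and 1.03 CPM (-0.53 ± 0.28, edgeR adjusted p = 0.14), Cd8a 0.757 and 0.639 (-0.25 ± 0.36, edgeR adjusted p = 0.64) and Cd247 0.438 and 0.412 (-0.09 ± 0.41, edgeR adjusted p = 0.90). In Cirrhosis-PTH against Control 3 genes rose, among them Lck and Rhoh, with a median of 0.52 beside 0.0055 for all genes. Of all genes tested, 6.34% were called higher there and 2.48% lower. The call of Lck was lost without Control replicates 1, 3 or 8 or Cirrhosis-PTH replicates 3 or 6, and that of Rhoh without Control replicates 2 or 3 or Cirrhosis-PTH replicate 3. The count of 3 was 1 without Control replicate 3 or Cirrhosis-PTH replicate 3 and 5 without Control replicate 6.

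**Figure D5:**
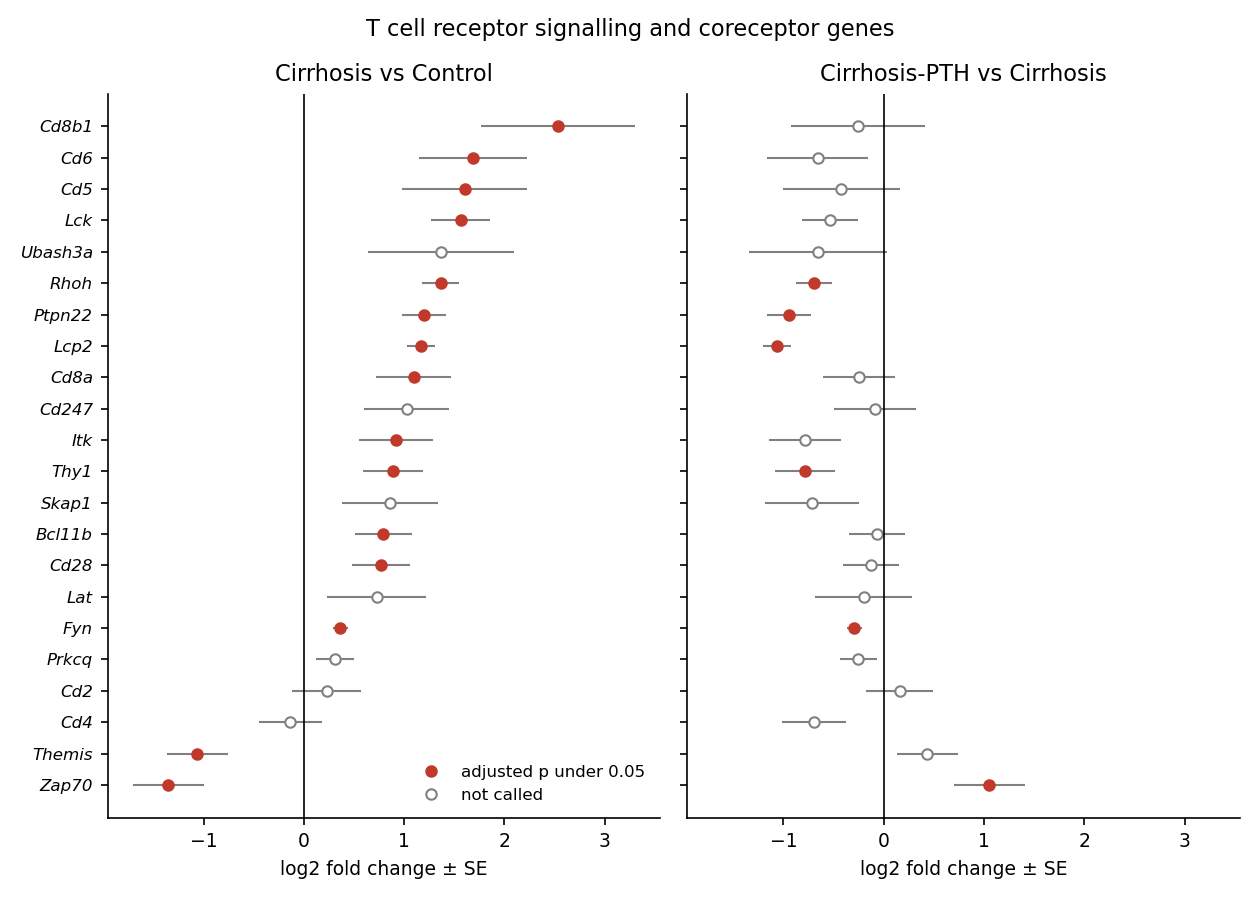
Log2 fold change with its standard error for 22 of the 23 tested genes of T cell receptor signalling and coreceptors, in Cirrhosis against Control (left) and Cirrhosis-PTH against Cirrhosis (right). The tested gene not drawn, called in both comparisons, is not reported here. Filled points have an edgeR adjusted p under 0.05. On the left 13 of the genes drawn are called above 0 and Zap70 and Themis below it, and on the right 5 are called below 0 and Zap70 above it.

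Trdc encodes a part of the gamma-delta receptor, and genes linked to gamma-delta T cells were examined beside it. Of 14 genes linked to gamma-delta T cells and interleukin-17, 10 were tested. In Cirrhosis against Control 1 rose (Il1r1, the interleukin-1 receptor, 40.0 to 55.7 CPM, 0.48 ± 0.17, edgeR adjusted p = 0.021) and 1 fell. The call of Il1r1 was lost without Cirrhosis replicates 1 or 5. The median of the list was 0.42. The count of 2 was 5 without Control replicate 7, 6 without Control replicates 7 and 8, and 1 without Cirrhosis replicates 1 or 5.

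Sox13, a transcription factor of gamma-delta T cells, had 5.88, 6.18 and 5.67 CPM in Control, Cirrhosis and Cirrhosis-PTH, and the first difference was 0.07 ± 0.12 (edgeR adjusted p = 0.67). Cd163l1, a scavenger receptor of interleukin-17-producing gamma-delta T cells, had 0.0441, 0.109 and 0.0625 CPM (1.48 ± 1.18 in Cirrhosis, edgeR adjusted p = 0.31). It passed under 3 of 24 alternatives, among them without Control replicate 7, where its log2 fold change was 6.32. Cd163l1 had only 12 counts over all Control libraries and 75 over Cirrhosis, so the size of that value is uncertain. Il17a was listed at 0 in all 18 libraries and Il17f had 4 counts, all in Cirrhosis-PTH. Il23r had 9, 49 and 18 counts and was not tested.

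Of 8 genes of naive and central memory T cells, 5 rose and 1 fell in Cirrhosis, with a median of 0.99, and 5 fell in Cirrhosis-PTH against Cirrhosis, with a median of -0.56. Il7r, the interleukin-7 receptor, rose from 0.819 to 5.32 CPM (2.69 ± 0.40, edgeR adjusted p = 1.2e-05) and then fell to 1.54 (-1.79 ± 0.37, edgeR adjusted p = 0.00073). Tcf7, a transcription factor of naive and memory T cells, rose from 2.78 to 5.47 CPM (0.98 ± 0.14, edgeR adjusted p = 3.4e-06). The counts of all gene lists stand beside the 25.5% of all genes tested that were called higher in Cirrhosis and the 25.0% called lower. For Cirrhosis-PTH against Cirrhosis those shares are 20.1% and 18.6%. A list count near the share of its comparison is no result about the list. Of 12 tested genes of effector and tissue-resident T cells, 3 rose, a share near that of all genes (median 0.45), among them the chemokine Ccl5 from 0.209 to 0.661 CPM (1.69 ± 0.45, edgeR adjusted p = 0.0037). The others were Itga1, lost under 6 of 24 alternatives (among them without Control replicates 2 or 3 or Cirrhosis replicates 2 or 3), and Cd69, also lost under 6 (among them without Control replicates 1, 6 or 8 or Cirrhosis replicate 5). In Cirrhosis-PTH against Cirrhosis 1 of the 12 rose, Cxcr6, a chemokine receptor of liver-resident lymphocytes, from 1.64 to 2.48 CPM (0.60 ± 0.19, edgeR adjusted p = 0.015).

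Of 8 regulatory T cell genes, 1 rose (Ikzf2, 0.711 to 1.98 CPM, 1.45 ± 0.23, edgeR adjusted p = 1.6e-05), and the median was 0.43. The count was 2 without Control replicates 6, 7 or 8 or Cirrhosis-PTH replicates 3 or 4. In Cirrhosis-PTH against Cirrhosis 1 fell (Tnfrsf4, 0.682 to 0.294 CPM, -1.20 ± 0.41, edgeR adjusted p = 0.025), a call that was lost without Cirrhosis replicate 1 or Cirrhosis-PTH replicates 1 or 2. The count of 1 was 0 without Cirrhosis-PTH replicate 1 and 2 without Control replicates 6 or 7, Cirrhosis replicate 5 or Cirrhosis-PTH replicates 3 or 4. Foxp3, the factor that defines these cells, had 0.488 CPM in Control and 0.720 in Cirrhosis (0.57 ± 0.32, edgeR adjusted p = 0.14), and passed without Control replicate 7. Of 8 inhibitory receptor genes, 4 rose and 1 fell, with a median of 0.57. Havcr2, which encodes TIM-3 and is also expressed by myeloid cells, rose from 0.476 to 2.43 CPM (2.42 ± 0.32, edgeR adjusted p = 1.6e-06). In Cirrhosis-PTH against Cirrhosis 2 fell, Havcr2 to 1.21 CPM (-0.9998 ± 0.29, edgeR adjusted p = 0.0085) and Cd244a, also an NK cell receptor, from 2.57 to 1.12 (-1.19 ± 0.27, edgeR adjusted p = 0.0013). In Cirrhosis against Control Tox fell from 5.48 to 1.89 CPM (-1.53 ± 0.27, edgeR adjusted p = 7e-05). Pdcd1, which encodes PD-1, was listed at 0 in Control and had 147 counts in Cirrhosis and 36 in the PTH group. Of the genes of receptor assembly, Dntt was the only 1 tested, at 0.197, 0.361 and 0.311 CPM (0.89 ± 0.42 in Cirrhosis, edgeR adjusted p = 0.084, called only without Cirrhosis-PTH replicate 1), and Rag1 had 0, 25 and 4 counts.

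Between Cirrhosis and each other group, pan-leukocyte and neutrophil markers went in the same directions as Trdc. Lists for other cells did so only in part or went the other way. The part of any of these cells in the Trdc difference was not tested. Of all genes tested, 25.5% were called higher in Cirrhosis and 25.0% lower. In Cirrhosis-PTH against Cirrhosis these shares were 20.1% and 18.6%. All 8 pan-leukocyte markers rose in Cirrhosis (median 1.74) and all 8 fell in Cirrhosis-PTH against Cirrhosis (median -1.43). Their summed level ran from 45.6 to 71.1 CPM in Control, 165 to 275 in Cirrhosis and 68.4 to 92.0 in the PTH group. All 7 tested neutrophil markers rose (median 4.27) and 6 fell again. Their summed level ran from 0.179 to 7.34 CPM, 9.73 to 129 (median 13.6) and 1.88 to 8.66. The 6 that fell were 1 without Cirrhosis replicate 2 and 3 without Cirrhosis-PTH replicates 1, 4 or 5. In Cirrhosis-PTH against Control 5 pan-leukocyte markers (median 0.52) and 2 neutrophil markers (median 1.53) were called higher, beside 6.34% of all genes. The neutrophil count of 2 was 0 without Control replicates 1, 2, 3 or 7. For Trdc the log2 fold change in that comparison was -1.07 ± 1.18.

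Of 11 tested NK cell markers 6 rose (median 1.27) and 2 then fell, with summed levels of 7.56 to 9.62 CPM, 20.5 to 30.8 and 10.9 to 14.4. Ncr1, a defining NK cell receptor, was listed at 0 in Control and had 250 counts in Cirrhosis and 258 in the PTH group, so it did not share the pattern of Trdc. Klrb1c, which encodes NK1.1, had 0.340 and 0.548 CPM (0.67 ± 0.33, edgeR adjusted p = 0.099). Of 8 B cell markers 6 rose and 1 then fell, or 2 without Cirrhosis replicate 5 (summed 6.06 to 13.4 CPM, 13.0 to 18.7 and 10.9 to 15.4), with Cd79a going from 0.496 to 0.903 (0.84 ± 0.33, edgeR adjusted p = 0.038), a call that was lost under 10 of 24 alternatives.

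Of 6 tested markers of type 2 innate lymphoid cells 4 rose and 2 then fell, or 1 without any of Cirrhosis replicates 1, 2, 4 and 6 and Cirrhosis-PTH replicates 1 to 5 (summed 5.67 to 10.1 CPM, 8.91 to 12.4 and 7.22 to 10.0). Gata3, their defining factor, had 0.147 and 0.395 CPM (1.40 ± 0.73, edgeR adjusted p = 0.12), and passed without Control replicate 7. Areg, the amphiregulin gene, had 14 counts in Control, 908 in Cirrhosis and was listed at 0 in the PTH group. Of 8 Kupffer cell markers 4 rose and 2 fell, and then 4 fell (summed 199 to 350 CPM, 275 to 591 and 175 to 275). Clec4f, their defining marker, fell from 62.5 to 38.7 CPM (-0.69 ± 0.17, edgeR adjusted p = 0.0026). Of 10 hepatocyte markers 8 fell in Cirrhosis and 7 then rose, and their summed level ran from 54283 to 69808 CPM in Control, 35581 to 56714 in Cirrhosis and 53061 to 59503 in the PTH group.

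Some genes had a pattern over the 18 libraries close to that of Trdc, measured as the root mean square difference in log2 CPM centred on the Control mean, among 21424 genes. The 5 closest were Nupr1 (1.36), S100g (1.44), Timp1 (1.56), Cdh17 (1.58) and Atp13a4 (1.59), and none of them encodes a receptor chain. Nupr1, a stress-induced chromatin protein, had 0.487 ± 0.34 CPM in Control, 32.1 ± 25.9 in Cirrhosis and 0.731 ± 0.24 in the PTH group (SD, n = 6 each). S100g, a calcium-binding protein gene, had 0.0441 ± 0.060, 4.32 ± 1.499 and 0.0782 ± 0.062. Timp1, an inhibitor of matrix metalloproteinases, had 0.227 ± 0.45, 5.70 ± 2.24 and 0.251 ± 0.11. Because these genes were ranked by the same contrast that marks Trdc, their levels are a description.

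The mean of the CD3 genes, centred within each group, was followed most closely by Triqk (r = 0.845 over 18 libraries), Gm16907 (0.839), Lsm8 (0.803), Lockd (0.7998) and Meis3 (0.794). These values are the highest of 21424 genes, rest on counts as low as 0 for Cd3d, and share library depth with it. No other receptor gene was among them.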

How the data were processed

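Liver RNA of 18 mice was sequenced after removal of ribosomal RNA, 1 library per mouse. The authors deposited whole-number counts per gene in 1 table. The submitters' processing notes name GRCm38 as the build, and among tools the aligner HISAT2 2.2.1 and the assembler StringTie 2.1.5, without saying how they were used. The counter, its strand setting and the annotation release are not given in the sources used here.

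All libraries entered 1 fit in edgeR 4.0.16 (R 4.3.3), with filterByExpr, TMM scaling, glmQLFit and two-sided glmQLFTest, and Benjamini-Hochberg adjustment over 21914 genes at a threshold of 0.05. Adjusted p-values of genes come from this fit. CPM uses the TMM-scaled library size. The code was tested on simulated data. Genes were matched by identifier to the GENCODE annotation of GRCm38 (54723 of 54752), the source of exon lengths, positions and sequences. The 10 genes, the 14 gene lists and the naming rule were chosen with earlier results of these data known. The rule takes all 10 genes and, from each list, the genes with the 3 smallest p in Cirrhosis against Control and the 2 smallest in Cirrhosis-PTH against Cirrhosis, plus defining markers. The text gives values for a part of these, and some genes and sequences are not reported here. Relations within groups used exact permutation over 720 pairings in scipy 1.17.1. Alternatives were upper quartile scaling, DESeq2 1.42.0 with its size factors, no filter, ribosomal loci left out, a replicate block, Control replicates 7 and 8 left out (they stood apart in an earlier description of these data), and each library left out in turn.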

Additional observations from a re-analysis of the deposited data

Results flagged for a closer look

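Of 42 groups of 6 libraries examined for the 10 genes and the segment sums, 7 held a library whose gap to the nearest other exceeded Dixon's 95% critical share of the range. For normally distributed values chance flags about 1 group in 20. That rate need not hold here, since several of these groups hold many values listed at 0. Trac was lowest in Control replicate 1, at 0.114 CPM where the other Control libraries had 0.372 to 0.507, and in Cirrhosis replicate 4, at 0.282 CPM where the others had 0.510 to 0.608. Control replicate 7 was highest for Trdc (0.551 CPM, the others at 0.118 or less), for Tcrg-C1 (0.352 CPM, the others at 0.0893 or less) and for Cd3d (0.683 CPM, the others at 0.134 or less). Control replicate 8 was highest for Tcrg-C4, at 0.111 CPM where the others had 0.0406 or less. Control replicate 1 was highest for the summed V gamma segments, at 0.0571 CPM with the others listed at 0.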

How the results depend on the processing

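Over 24 alternatives no call turned its direction. The log2 fold change of Trdc, whose direction the choice of genes fixes, ran from 6.19 to 7.93 for Cirrhosis against Control and from -8.12 to -7.28 for Cirrhosis-PTH against Cirrhosis. Of 582 values of the 10 genes, 2 moved by more than the spread between libraries: Trac in Cirrhosis against Control with the replicate block (1.14) and Cd3d without Control replicate 7 (2.18). With single libraries left out, 12 to 17 signalling genes were called in Cirrhosis against Control, 5 to 8 in Cirrhosis-PTH against Cirrhosis, and 1 to 5 in Cirrhosis-PTH against Control. Counts over lists moved by over 1.5 times in 107 of 1080 cases. Of 8922 values of single list genes, 245 lost and 111 gained a call. Same-numbered libraries of different groups did not deviate together (0 of 14 pairs had r over 0.1, range -0.064 to 0.051), so the numbers were not taken to pair the mice. With the replicate block 9526, 8219 and 1354 genes were called in the 3 comparisons, beside 11073, 8464 and 1932 without it. DESeq2 called 11455, 8958 and 2720. Low counts limit the gamma constants (8 to 105 counts per gene and group) and Trdc outside Cirrhosis (38 and 27 counts).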
